A study of Mus musculus with 6 samples.

Results

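Msln, Upk3b, Upk1b, Krt8, Krt18, Krt19, Gpm6a, Wt1, Lrrn4 and Bnc1, 10 genes that mark the mesothelial and epicardial surface of the heart, were followed in 6 mouse heart libraries. They were chosen by name, with earlier results of these libraries known, among them the lower or higher level of many of these genes with each drug. Their levels and their differences from untreated hearts are therefore a description, and no test of them is leaned on. All 10 were among the 16229 genes listed, and all 10 were among the 12981 genes tested. The hearts came from male C57BL/6 mice, an inbred laboratory strain, aged 8 to 10 weeks. The 2 untreated samples (replicates 8 and 9) are compared with 2 samples from mice given rivaroxaban, an inhibitor of coagulation factor Xa, at 3 mg/kg for 7 days (replicates 14 and 15). The other 2 samples came from mice given dabigatran, an inhibitor of thrombin (factor IIa), at 10 mg/kg for 7 days (replicates 10 and 12). The series concerns inflammation after myocardial ischemia and reperfusion, and the protocol describes the tissue of every group as infarcted heart with its surroundings. Surgery of the untreated mice, the day of any infarct and whether samples of 1 group are separate mice are not stated in the labels.

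The mesothelium is a thin sheet of flattened cells that lines the body cavities and covers the organs in them. On the heart this covering is the epicardium, which secretes lubricating glycoproteins, holds itself together with keratins as other epithelia do, and sends signals to the muscle beneath. In the embryo epicardial cells leave the sheet, lose their epithelial features and give rise to fibroblasts and mural cells, and after injury the adult layer can take up embryonic genes such as Wt1 again. Wt1 is also made by some endothelial cells of the injured heart.

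The 10 genes are scattered over 8 chromosomes, and only Krt8 and Krt18 are close neighbours, 23.7 kb apart. Promoter windows from RefSeq (GRCm38.p6), which run from 250 bases before to 30 bases after an annotated start, were matched for 6 of the 10 genes and gave 7 windows, 2 of them for Gpm6a. Msln, Upk1b, Krt19 and Wt1 were not matched. The windows of Upk3b, Lrrn4 and Gpm6a are shown because they hold the shared motif given below, and those of Krt8 and Krt18 because these neighbours encode partners of the same filament. The first start of Gpm6a lies 175.4 kb upstream of the GENCODE span given for the gene below, outside it, and the second lies near the start of that span. Each is written 5′ to 3′ on the strand of the gene, and capitals mark every match, on either strand, to the motifs listed after the sequences.
Upk3b, chr5:136038246-136038525, plus strand: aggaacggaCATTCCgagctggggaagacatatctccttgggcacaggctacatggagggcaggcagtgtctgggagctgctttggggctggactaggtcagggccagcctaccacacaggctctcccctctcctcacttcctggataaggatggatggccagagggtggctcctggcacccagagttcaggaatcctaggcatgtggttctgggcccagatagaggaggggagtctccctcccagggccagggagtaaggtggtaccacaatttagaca
Lrrn4, chr2:132880833-132881112, minus strand: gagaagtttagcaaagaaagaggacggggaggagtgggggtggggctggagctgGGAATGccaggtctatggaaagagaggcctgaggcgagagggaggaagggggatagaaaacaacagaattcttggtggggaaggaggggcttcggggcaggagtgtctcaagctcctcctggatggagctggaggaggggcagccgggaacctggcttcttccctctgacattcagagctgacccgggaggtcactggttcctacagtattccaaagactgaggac
Gpm6a, the first window, chr8:54779184-54779463, plus strand: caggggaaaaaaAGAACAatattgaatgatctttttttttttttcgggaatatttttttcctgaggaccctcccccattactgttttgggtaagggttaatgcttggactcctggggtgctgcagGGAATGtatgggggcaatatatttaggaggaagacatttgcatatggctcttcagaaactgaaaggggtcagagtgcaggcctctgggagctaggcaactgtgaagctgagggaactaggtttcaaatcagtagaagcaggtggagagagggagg
Gpm6a, the second window, chr8:54954478-54954757, plus strand: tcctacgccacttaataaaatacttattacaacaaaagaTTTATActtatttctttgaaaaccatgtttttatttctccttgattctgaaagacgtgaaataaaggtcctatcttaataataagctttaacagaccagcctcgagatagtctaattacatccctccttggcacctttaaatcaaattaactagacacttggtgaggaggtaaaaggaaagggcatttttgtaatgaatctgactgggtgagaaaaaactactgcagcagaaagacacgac
Krt8, chr15:102004313-102004592, minus strand: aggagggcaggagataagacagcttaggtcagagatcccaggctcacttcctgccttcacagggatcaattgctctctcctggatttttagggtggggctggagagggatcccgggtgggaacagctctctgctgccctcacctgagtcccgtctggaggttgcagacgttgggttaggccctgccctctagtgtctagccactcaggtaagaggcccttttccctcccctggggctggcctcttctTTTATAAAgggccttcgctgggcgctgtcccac
Krt18, chr15:102027966-102028245, plus strand: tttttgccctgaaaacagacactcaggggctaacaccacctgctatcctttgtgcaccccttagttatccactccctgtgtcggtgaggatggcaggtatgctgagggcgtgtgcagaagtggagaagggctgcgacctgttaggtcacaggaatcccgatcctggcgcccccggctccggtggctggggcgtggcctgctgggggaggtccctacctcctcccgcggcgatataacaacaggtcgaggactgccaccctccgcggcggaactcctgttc

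The motifs searched on both strands were TATAAA (the TATA box), GGGCGG (the GC box), CCAAT (the CCAAT box), GGAATG (bound by TEAD factors), TGANTCA (bound by AP-1), GCGTGGG (bound by WT1 and EGR factors) and TGTTCT (part of the glucocorticoid receptor element). GGAATG, or its reverse complement CATTCC, stood in 3 of the 7 windows, those of Upk3b, Lrrn4 and the first, distant window of Gpm6a but not the second, and in 13.9% of all 32851 windows of this length. TATAAA stood in the Krt8 window, where both strands match and overlap, and in the second window of Gpm6a, against 13.1% of all windows. The Krt8 matches begin 1 and 3 bases before the annotated start and run across it. The Gpm6a match begins 211 bases before its start, on the opposite strand. GGGCGG was found in the Bnc1 window alone (34.7% of all windows) and TGTTCT in the first window of Gpm6a alone (17.9%). The CCAAT box, the AP-1 motif and the WT1 and EGR motif, which 36.1%, 7.46% and 4.76% of all windows hold, were in none of the 7. The Krt18 window held no match. G and C made up 58.9% of the Upk3b window, 57.9% of that of Lrrn4, 58.6% of that of Krt8, 61.4% of that of Krt18, 82.9% of that of Bnc1 and 45.4% and 34.6% of those of Gpm6a, where the median of all windows was 52.5%. These matches describe letters and were not tested as binding sites.

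Sequencing depth ran from 27176892 to 43798222 reads per library, summed over the listed genes, and the 10 genes took between 19 and 940 reads each in a library. Values are log2 CPM, the log2 of a gene's share of the reads of its library, which the authors scaled between libraries by TMM. The tissue label was met by its markers: 8 cardiomyocyte genes summed to 85199 to 85924 CPM in untreated hearts, 81003 to 82706 with rivaroxaban and 84100 to 84461 with dabigatran. These sums did not overlap between groups, and none of the 8 genes passed the threshold in any comparison. In heart tissue as a whole, fewer surface cells and less RNA per surface cell cannot be told apart. The labels give no batch.

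Per kilobase of exon, Upk3b stood highest of the 10 genes in every group, at 8.60 ± 0.53 CPM per kb in untreated hearts (SD, n = 2), 4.54 ± 0.87 with rivaroxaban and 5.06 ± 0.41 with dabigatran. Msln came next, at 6.03 ± 0.45, 2.58 ± 0.41 and 3.60 ± 0.31 CPM per kb. Bnc1 was the lowest of the 10 in each group, at 0.345, 0.185 and 0.189 CPM per kb. In untreated hearts Gpm6a (3.87 CPM per kb), Krt19 (3.06), Upk1b (2.44), Lrrn4 (1.79), Krt18 (1.62) and Wt1 (1.53) followed Msln in that order, and no neighbours among these 6 differed by more than the sum of their SDs. Wt1 stood at rank 8 of the 10 in untreated hearts and at rank 4 with either drug, at 2.13 CPM per kb with rivaroxaban and 2.18 with dabigatran. With rivaroxaban the steps from Msln to Gpm6a (2.34 CPM per kb) and from Gpm6a to Wt1 were within the sum of the SDs.

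**Figure D1:**
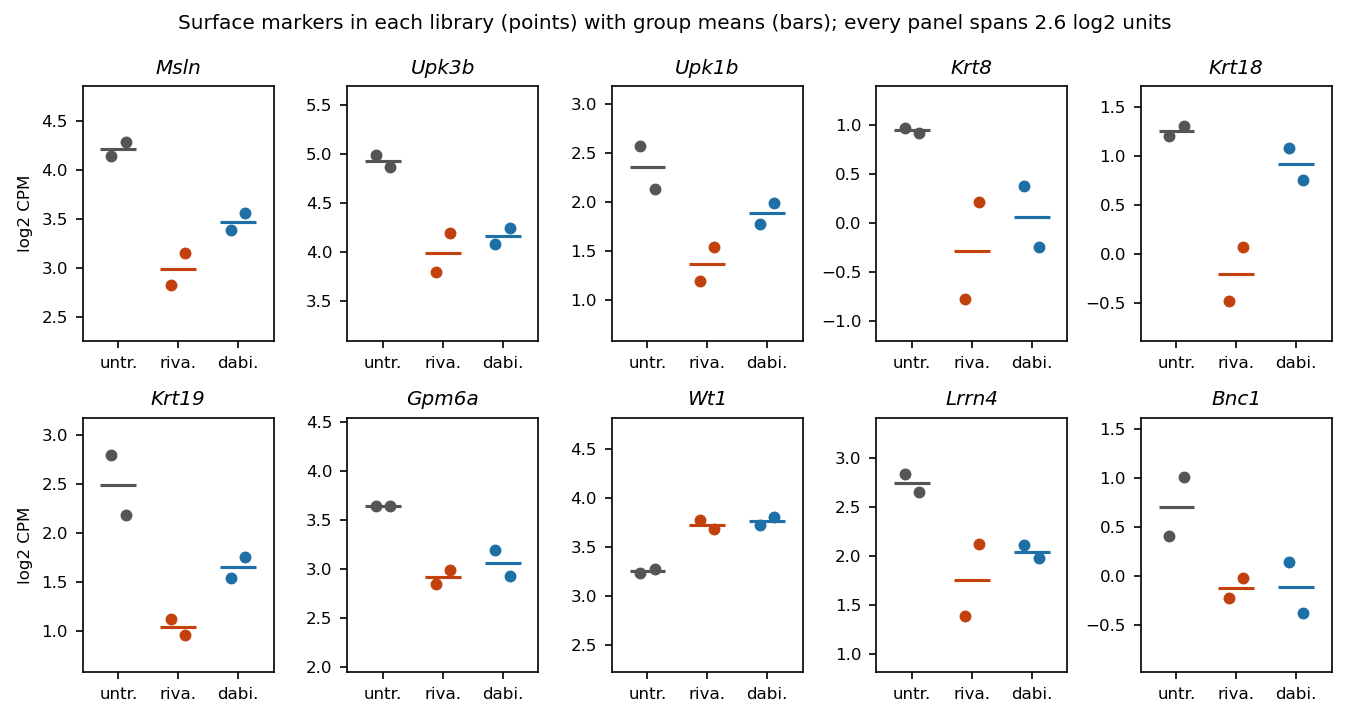
Level of each of the 10 genes in log2 CPM in the 6 libraries, coloured by group, with 1 point for each library and a short line at the mean of each group. In 9 panels the 4 treated libraries lie below both untreated ones, and in the Wt1 panel they lie above them.

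Msln (ENSMUSG00000063011, chr17:25748613-25754378, minus strand, GRCm38) encodes mesothelin, a lipid-anchored surface glycoprotein that gives the layer its best-known marker. It stood at 4.13 and 4.29 log2 CPM in untreated replicates 8 and 9, at 2.82 and 3.15 in rivaroxaban replicates 14 and 15, and at 3.38 and 3.56 in dabigatran replicates 10 and 12. The 3 groups did not overlap, with the rivaroxaban pair lowest and the dabigatran pair between. The log2 difference from untreated was -1.23 (SE 0.13) with rivaroxaban, 0.428 of the untreated level, and -0.74 (SE 0.13) with dabigatran, 0.599 of it.

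Upk3b (ENSMUSG00000042985, chr5:136038496-136046487, plus strand) encodes a uroplakin, a membrane protein of the family that forms plaques on the bladder lining, and is also made by mesothelium. Its level was 4.99 and 4.86 log2 CPM in the untreated libraries, 3.80 and 4.19 with rivaroxaban and 4.08 and 4.25 with dabigatran. Both drug groups lay below the untreated one and overlapped each other. The log2 differences were -0.93 (SE 0.12) with rivaroxaban and -0.76 (SE 0.12) with dabigatran, or 0.524 and 0.589 of the untreated level. Upk1b (ENSMUSG00000049436, chr16:38773184-38800328, minus strand), a tetraspanin of the same plaques, was at 2.57 and 2.13 log2 CPM untreated, 1.19 and 1.54 with rivaroxaban and 1.77 and 1.98 with dabigatran. Its groups did not overlap, although the untreated replicates were themselves 0.43 apart. The log2 differences of Upk1b were -0.98 (SE 0.20) with rivaroxaban and -0.47 (SE 0.20) with dabigatran.

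Gpm6a (ENSMUSG00000031517, chr8:54954843-55060871, plus strand) encodes a membrane glycoprotein best known from neurons, where it shapes cell protrusions. It stood at 3.65 log2 CPM in both untreated libraries, at 2.85 and 2.99 with rivaroxaban and at 3.20 and 2.93 with dabigatran. The drug groups overlapped each other and lay below the untreated pair, with log2 differences of -0.73 (SE 0.12) and -0.58 (SE 0.12). The annotation places 5 other, unverified genes inside its span on the same strand. Lrrn4 (ENSMUSG00000043110, chr2:132868305-132880891, minus strand), which encodes a leucine-rich repeat membrane protein, was at 2.84 and 2.65 log2 CPM untreated, 1.39 and 2.12 with rivaroxaban and 2.11 and 1.98 with dabigatran. Again both drug pairs lay below the untreated pair, and the rivaroxaban pair spanned the dabigatran pair. Its log2 differences were -0.99 (SE 0.21) with rivaroxaban and -0.70 (SE 0.21) with dabigatran.

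Keratins form the filaments of epithelial cells as pairs of a type I and a type II chain. Krt19 (ENSMUSG00000020911, chr11:100140810-100148665, minus strand), a type I keratin, stood at 2.79 and 2.18 log2 CPM untreated, 1.12 and 0.96 with rivaroxaban and 1.54 and 1.76 with dabigatran. The groups did not overlap, and the log2 differences from untreated were -1.45 (SE 0.21) and -0.84 (SE 0.21). Krt18 (ENSMUSG00000023043, chr15:102028180-102032027, plus strand), the type I partner of Krt8, was at 1.21 and 1.31 log2 CPM untreated, -0.47 and 0.08 with rivaroxaban and 1.08 and 0.75 with dabigatran. Here too the groups did not overlap, and the dabigatran pair lay nearer to the untreated pair than to the rivaroxaban pair. The log2 difference of Krt18 was -1.45 (SE 0.26) with rivaroxaban, 0.365 of the untreated level, and -0.34 (SE 0.26; 95% interval -0.92 to 0.24) with dabigatran. Krt8 (ENSMUSG00000049382, chr15:101996698-102004482, minus strand), the type II chain, was at 0.97 and 0.91 log2 CPM untreated, -0.78 and 0.21 with rivaroxaban and 0.37 and -0.25 with dabigatran. Both treated pairs lay below the untreated pair and overlapped each other widely. The log2 differences of Krt8 were -1.23 (SE 0.36) and -0.88 (SE 0.36), from only 19 to 59 reads in a library. An opposite-strand noncoding gene overlaps Krt8, and a processed copy of Krt8 lies on chromosome 7, so some of its reads may belong elsewhere.

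The balance of the chains was read per kilobase. Krt18 and Krt19, the type I chains, summed to 5.27 and 4.09 CPM per kb in untreated hearts, 1.60 and 1.71 with rivaroxaban and 2.96 and 2.92 with dabigatran. The type II chains Krt7 and Krt8 summed to 1.29 and 1.20, to 0.376 and 0.720 and to 0.825 and 0.583 CPM per kb in the same order. The ratio of type I to type II overlapped between all groups, at 4.08 and 3.40 untreated, 4.26 and 2.37 with rivaroxaban and 3.59 and 5.01 with dabigatran. The ratio of Krt18 to Krt8 was 1.61 and 1.80 in untreated hearts, 1.72 and 1.23 with rivaroxaban and 2.27 and 2.85 with dabigatran. The dabigatran pair thus stood above the other 4 libraries in that ratio, which was not tested. The ratio rests on between 24 and 78 reads of Krt18 in a library. It also rests on only 19 to 59 reads of Krt8, some of which may belong elsewhere.

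**Figure D2:**
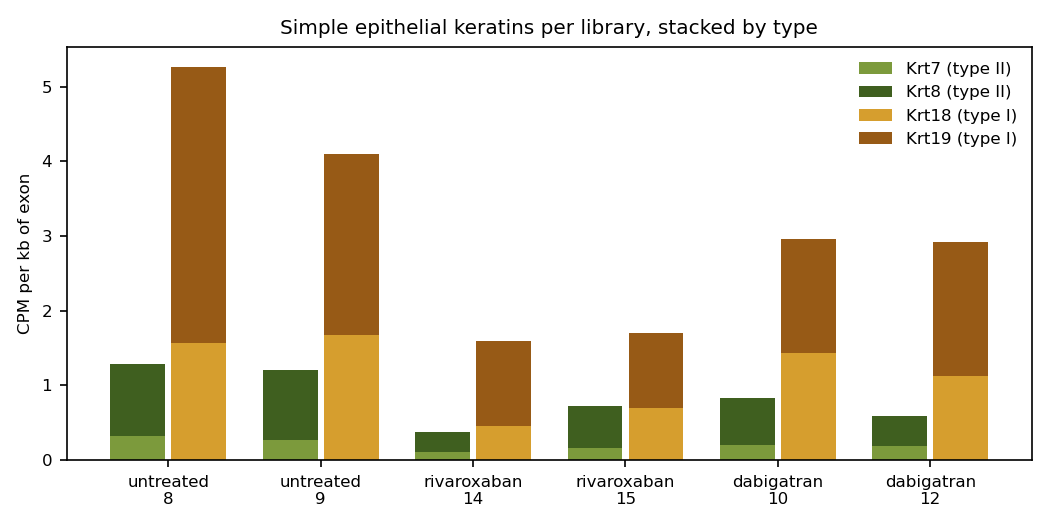
Summed type I keratins (Krt18 and Krt19) and summed type II keratins (Krt7 and Krt8) in CPM per kb of exon in the 6 libraries, as stacked bars with a colour for each gene. Both sums are lower in every treated library than in both untreated libraries, and the type I sum is highest at 5.27 in untreated replicate 8.

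Wt1 and Bnc1 encode zinc finger transcription factors. Wt1 (ENSMUSG00000016458, chr2:105126529-105173616, plus strand), which drives the embryonic epicardial program, went the other way from the surface genes. It stood at 3.24 and 3.28 log2 CPM in untreated hearts, 3.77 and 3.68 with rivaroxaban and 3.72 and 3.80 with dabigatran. All 4 treated libraries lay above both untreated ones, and the drug groups overlapped. The log2 differences were 0.47 (SE 0.10) and 0.51 (SE 0.10), or 1.38 and 1.42 times the untreated level. Bnc1 (ENSMUSG00000025105, chr7:81966672-81992292, minus strand), basonuclin, was at 0.40 and 1.01 log2 CPM untreated, -0.22 and -0.02 with rivaroxaban and 0.15 and -0.37 with dabigatran. Its treated libraries lay below both untreated ones, which were 0.60 apart, and its log2 differences were -0.83 (SE 0.32) and -0.82 (SE 0.32). It had 27 to 63 reads in a library and is overlapped by a pseudogene on the opposite strand; whether the counting used strand is not given in the sources used here.

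Set against Upk3b in the same library, Wt1 had the widest range between groups: its mean log2 ratio to Upk3b was -1.67 in untreated hearts, -0.27 with rivaroxaban and -0.40 with dabigatran. Lrrn4 had nearly the same mean ratio to Upk3b in the 3 groups, at -2.18, -2.24 and -2.12. Its single libraries lay wider apart than these means, at -2.41 and -2.07 with rivaroxaban and -1.97 and -2.27 with dabigatran. The means of Bnc1 were also close, at -4.22, -4.11 and -4.28. For Msln the ratio was -0.72, -1.01 and -0.69, for Krt19 -2.44, -2.95 and -2.52, and for Krt18 -3.67, -4.19 and -3.24. For Gpm6a it was -1.28, -1.07 and -1.10. These ratios come from the same libraries as the differences above and add no separate support.

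**Figure D3:**
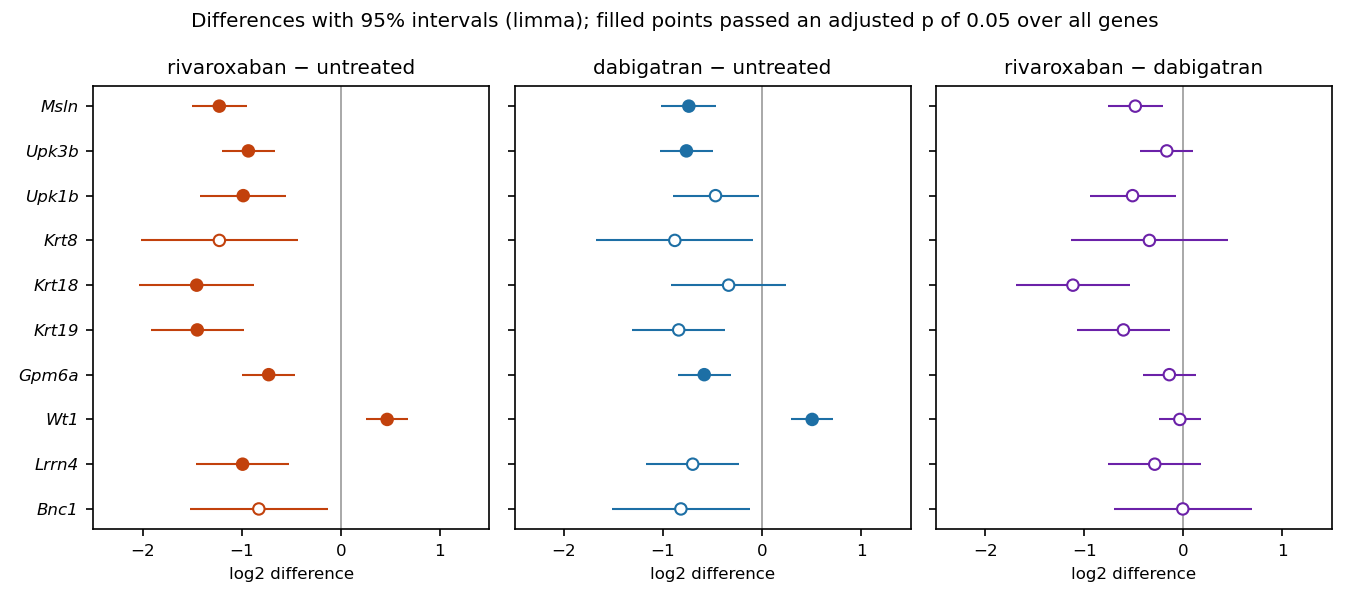
Log2 difference from untreated hearts of each of the 10 genes with rivaroxaban and with dabigatran, and of rivaroxaban from dabigatran, with lines for the 95% interval of the limma fit and filled points where a gene was called. In the first 2 panels the 9 genes other than Wt1 lie below 0, and Krt18 has the widest gap between the drugs, at -1.45 and -0.34.

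With rivaroxaban 7 of the 10 genes were called lower by limma at an adjusted p under 0.05 over all genes (Msln, Upk3b, Upk1b, Krt18, Krt19, Gpm6a and Lrrn4), where 0.986% of all genes tested were. Wt1 was called higher, as were 1.47% of all genes, and Krt8 and Bnc1 were not called. With dabigatran Msln, Upk3b and Gpm6a were called lower (0.501% of all genes) and Wt1 higher (1.38%), and 6 were not called. Because the genes were picked with these contrasts known, nothing is read from those counts. The median log2 difference of the 10 genes was -0.99 with rivaroxaban and -0.72 with dabigatran, where the median of all genes was 0.0050 and 0.0026. For 9 of the 10 genes all 4 treated libraries lay below both untreated ones, as for 11.7% of all genes, and for Wt1 all lay above, as for 14.7%. Both contrasts use the same 2 untreated libraries. Leaving out 1 library cut the rivaroxaban count of 7 to 2 without untreated replicate 8, 4 without untreated replicate 9, 3 without rivaroxaban replicate 14 and 4 without rivaroxaban replicate 15. In these 4 fits the genes called lower over the whole table went from 128 to 37, 65, 61 and 24. The dabigatran count of 3 became 0 without untreated replicate 8 and 1 without dabigatran replicate 10, where the count over the whole table went from 65 to 10 and 26. Msln and Upk3b kept the rivaroxaban call in all 4 of these fits, whereas Gpm6a lost it in all 4 and Wt1 lost its calls in all 4 for either drug. Without the mean-variance trend of limma none of the 12981 genes passed.

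Markers of other cells were read in the same libraries. The median log2 differences with rivaroxaban and dabigatran were -0.05 and -0.01 over 8 cardiomyocyte genes, -0.03 and -0.10 over 10 fibroblast genes, 0.04 and 0.07 over 10 endothelial genes, and 0.05 and 0.02 over 10 macrophage genes. In these 4 lists the endothelial gene Emcn was called lower and the macrophage gene Cd163 higher with rivaroxaban, the endothelial gene Flt1 was called higher with dabigatran, and no other gene was called. Of 8 mural and smooth muscle genes (medians -0.11 and -0.06) Myh11 was called lower with rivaroxaban, by 0.34 on the log2 scale, and of 5 lymphocyte genes (medians -0.09 and -0.25) Cd247 was, by 1.29; none of either list was called with dabigatran. These called genes were named after their values were seen. The summed endothelial level was 1215 to 1277 CPM in untreated hearts, 1250 to 1328 with rivaroxaban and 1260 to 1371 with dabigatran, and the summed fibroblast level was 3276 to 3340, 3421 to 3553 and 3268 to 3425 CPM. Summed lymphocyte markers did not overlap between untreated and treated hearts, at 13.96 to 14.43 CPM untreated, 8.87 to 11.05 with rivaroxaban and 9.71 to 10.6 with dabigatran, while the single genes with rivaroxaban ran from -1.29 for Cd247 to 0.10 for Cd4. Summed Schwann and neural markers, read because Gpm6a is also made by neurons, did not overlap either, at 25.6 to 30.1 CPM untreated, 23.1 to 25.3 with rivaroxaban and 23.1 to 24.4 with dabigatran. All 4 tested genes of that list lay below 0 with both drugs (medians -0.12 and -0.19), and none was called. The sum of 3 atrial genes, which can follow how the heart was cut, was 77.1 to 120 CPM untreated, 93.3 to 99.1 with rivaroxaban and 76.7 to 117 with dabigatran. The single atrial genes ran from -1.17 to 0.03 on the log2 scale with rivaroxaban and from -0.93 to 0.10 with dabigatran. Their medians were -0.06 and -0.02, and none of the 3 was called. Of 5 markers of lung epithelium, another organ lined by mesothelium, only 2 were listed and none was tested. These 2 summed to under 1 CPM in every library, with Scgb1a1 at no reads in some. Their sums did not overlap between untreated and treated hearts, at 0.070 to 0.402 CPM untreated, 0.548 to 0.660 with rivaroxaban and 0.435 to 0.672 with dabigatran. The part of any of these in the levels of the 10 genes was not tested.

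Between the drugs, which were given at different doses and so were not matched, none of the 10 genes passed (limma adjusted p from 0.223 to 0.997), and 0.077% of all genes did. At an unadjusted p under 0.05 limma gave 4 of the 10, Krt18, Krt19, Msln and Upk1b, where it gave 8.43% of all genes, and limma with voom weights on the recovered reads also called 0 and gave 4. The same 4 genes had both rivaroxaban libraries below both dabigatran libraries, which held for 20.4% of all genes. For Krt18 the log2 difference of rivaroxaban from dabigatran was -1.12 (95% interval -1.69 to -0.54, limma adjusted p = 0.223) and for Krt19 -0.61 (-1.08 to -0.14, limma adjusted p = 0.463). For Msln it was -0.49 (-0.76 to -0.21, limma adjusted p = 0.28) and for Upk1b -0.51 (-0.95 to -0.08, limma adjusted p = 0.518). The interval for Upk3b, -0.44 to 0.10, and that for Wt1, -0.25 to 0.17, held 0. All 10 differences were below 0, with a median of -0.32 against 0.0011 over all genes, but those of Upk3b, Krt8, Lrrn4 and Bnc1 were above 0 without rivaroxaban replicate 14.

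The libraries of 1 group differed among themselves as well. The group means do not use the direction of these differences, but a limma call depends on their size, so the choice of genes may have too. Rivaroxaban replicate 14 was lower than replicate 15 in 8 of the 10 genes, all but Krt19 and Wt1, with a median log2 difference of -0.33, where 49.1% of all genes were lower and the median size of a difference was 0.0832. The values over all genes were not matched to the 10 for read level. The gap was -0.99 for Krt8, -0.73 for Lrrn4, -0.39 for Upk3b and -0.33 for Msln, and for these 4 the 95% interval of counting error (exact binomial) did not hold 0. Such an interval covers counting error only, since the reads carry no molecular identifiers and are not independent molecules. In the untreated pair replicate 8 was higher than replicate 9 in 5 genes and lower in 5, with the widest gaps for Krt19 (0.61), Bnc1 (-0.60) and Upk1b (0.43), and the intervals of these 3 did not hold 0 either. The dabigatran pair also split 5 and 5, with Krt8 0.62 and Bnc1 0.52 higher in replicate 10, and there the interval left out 0 for 1 gene, Gpm6a (0.27). The wider mesothelial list described below leaned within groups too: untreated replicate 8 was higher than replicate 9 in 15 of its 18 genes (median 0.12), and rivaroxaban replicate 14 was lower than replicate 15 in 13 of 18 (median -0.09). Averaged over the 10 genes after centring each on its own mean, the libraries stood at 0.53 and 0.47 untreated, -0.61 and -0.26 with rivaroxaban and -0.01 and -0.12 with dabigatran.

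**Figure D4:**
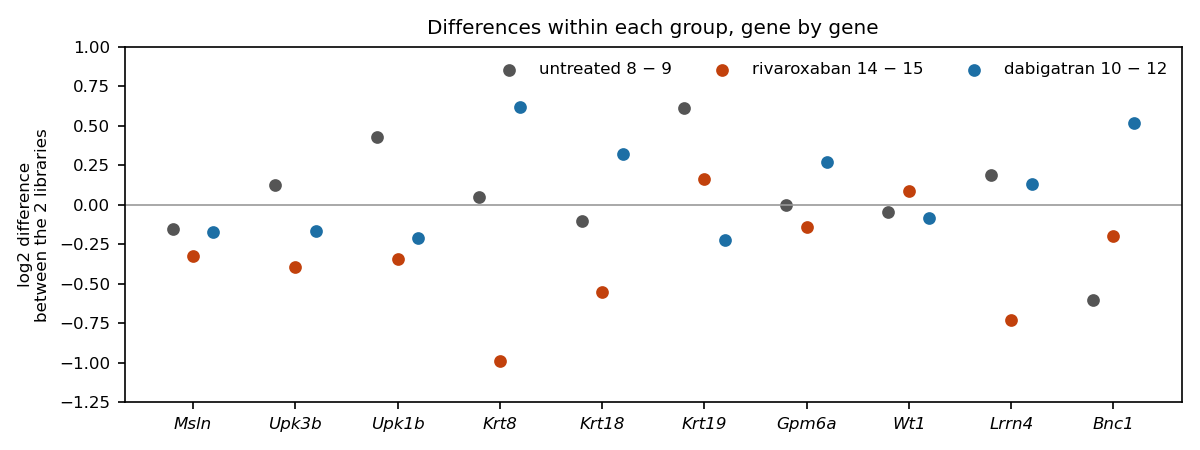
Log2 difference between the 2 libraries of each group for each of the 10 genes along the x axis, with 1 colour per group. Of the rivaroxaban points 8 of 10 lie below 0, down to -0.99 for Krt8, and the points of each other group split 5 and 5, with Gpm6a of the untreated pair almost at 0.

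A wider list of mesothelial and epicardial genes that holds none of the 10 was read in the same fit. Of its 24 entries 21 were listed and 18 tested, and Muc16, Calb2 and Cdh1 were not analysed here. This list too was drawn up with earlier results known. With rivaroxaban limma called 6 of the 18 lower, as it did 0.986% of all genes, and none higher, and the median log2 difference was -0.42. With dabigatran limma called 2 of the 18 lower, as it did 0.501% of all genes, and the median was -0.30. For 11 of the 18 all treated libraries lay below both untreated ones, as for 11.7% of all genes. Between the drugs limma called none of the 18, and the lowest adjusted p was 0.103.

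Nkain4, which encodes a partner of the sodium pump, stood at 2.21 and 2.39 log2 CPM untreated, 0.77 and 0.93 with rivaroxaban and 1.81 and 1.58 with dabigatran. Its groups did not overlap; it fell by 1.45 on the log2 scale with rivaroxaban (SE 0.18, limma adjusted p = 0.0020), and its difference of -0.61 with dabigatran did not pass (limma adjusted p = 0.13). Cldn15, a claudin of tight junctions, was at 3.35 and 3.21 log2 CPM untreated, 2.23 and 2.39 with rivaroxaban and 2.98 and 2.96 with dabigatran. It fell with rivaroxaban by 0.97 (SE 0.12, limma adjusted p = 0.0020), and the dabigatran pair lay between the other groups, at a difference of -0.31 (limma adjusted p = 0.248). Efemp1, which encodes the matrix protein fibulin-3, was at 4.69 and 4.58 log2 CPM untreated, 3.84 and 3.89 with rivaroxaban and 4.23 and 4.15 with dabigatran. It fell with both drugs, by 0.77 (limma adjusted p = 9.46e-04) and by 0.44 (limma adjusted p = 0.0270). Igfbp6, which binds insulin-like growth factors, likewise fell with both, by 0.57 (limma adjusted p = 0.0027) and by 0.35 (limma adjusted p = 0.0388).

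Rspo1, a secreted enhancer of Wnt signalling, fell with rivaroxaban by 0.93 (limma adjusted p = 0.0203), and so did C3, the central complement component, which many other cells also make, by 0.44 (limma adjusted p = 0.0325). With dabigatran Rspo1 had a difference of -0.57 that did not pass (limma adjusted p = 0.146). C3 had -0.03 with dabigatran (limma adjusted p = 0.908), and its dabigatran and untreated libraries overlapped. With 1 library left out, Nkain4, Cldn15 and Efemp1 kept the rivaroxaban call in all 4 fits, Igfbp6 lost it in 1, C3 in 3 and Rspo1 in 4, and both dabigatran calls were lost in each fit. Krt7, the type II keratin of simple epithelia, had differences of -1.11 (limma adjusted p = 0.056) and -0.62 (limma adjusted p = 0.307), neither of which passed. The epicardial transcription factors Tbx18 and Tcf21, the latter shared with fibroblasts, had differences of 0.16 and 0.13 with rivaroxaban and of 0.13 and -0.15 with dabigatran, and their treated and untreated libraries overlapped. Aldh1a2, the retinoic acid enzyme of the epicardium, had differences of -0.32 and -0.26, and Aldh1a1, an enzyme of the same family, 0.09 and 0.04, none of which passed.

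**Figure D5:**
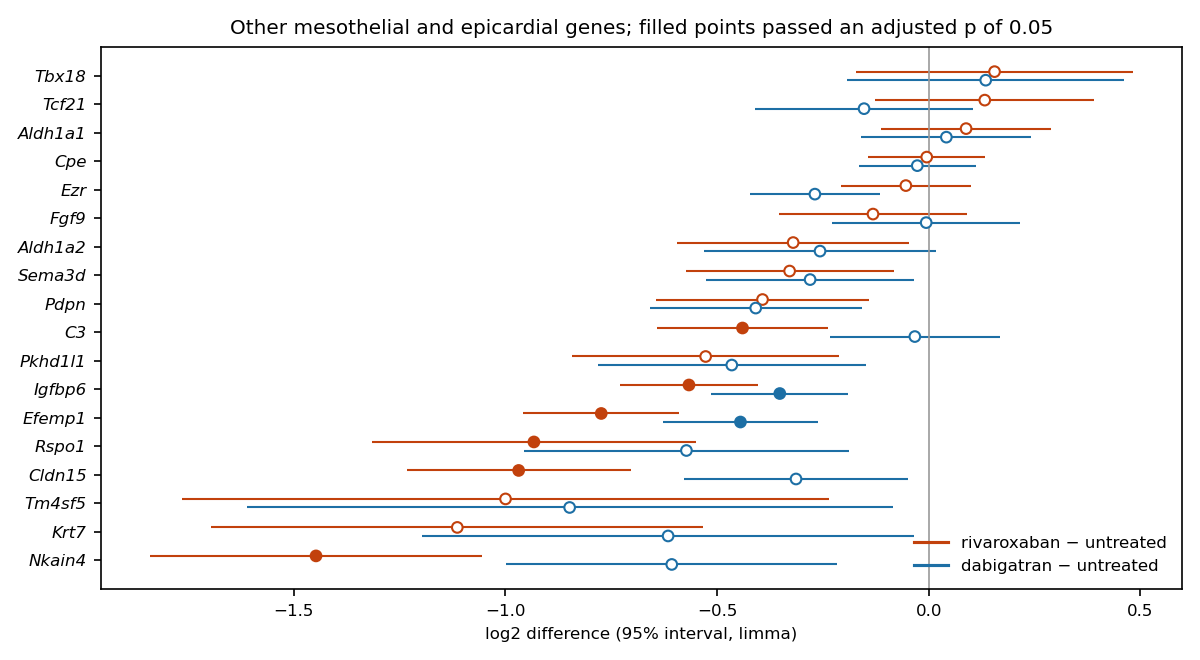
Log2 difference from untreated hearts with each drug for the 18 tested genes of the wider mesothelial and epicardial list, where a filled point passed the limma threshold and an open point did not. With rivaroxaban 15 of the 18 lie below 0, led by Nkain4 at -1.45, and with dabigatran 16 do.

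Other genes were ranked by how close their pattern over the 6 libraries came to the mean pattern of the 10, as the root mean square difference of centred log2 CPM. The 10 genes themselves lay 0.125 (Upk3b) to 0.614 (Wt1) from that mean, with Krt18 at 0.327, Krt19 at 0.317, Krt8 at 0.279 and Bnc1 at 0.274. Candidates were the 11316 genes outside the 10 with a mean log2 CPM of 1 or more and an ordinary gene symbol, not a numbered clone name. The median distance of the candidates was 0.409. The 12 closest were Rspo1 (0.028), Efemp1 (0.111), Xpnpep2 (0.111), Slc39a8 (0.134), Cyp2s1 (0.139), Tmem151a (0.140), Zfp985 (0.142), Cldn15 (0.142), Ccl11 (0.142), Chst4 (0.145), Arhgap32 (0.147) and Pcsk4 (0.147). Rspo1, Efemp1 and Cldn15, 3 of the 12, stand in the wider mesothelial list, of which 16 genes were among the 11316 candidates. That list was drawn up with earlier results known, so nothing is read from this count. Of the 12 closest, 11 were again the closest when Wt1 was left out of the pattern. Xpnpep2 encodes a membrane aminopeptidase, Slc39a8 a zinc transporter, Cyp2s1 a cytochrome P450 enzyme, Ccl11 the chemokine eotaxin and Chst4 a sulfotransferase. Their log2 differences lay between -0.9997 and -0.66 with rivaroxaban and between -0.87 and -0.29 with dabigatran, a direction that the ranking fixes.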

How the data were processed

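Poly-A RNA of 6 heart samples was sequenced with a directional kit, per the labels' protocols. Tools named without version in the submitters' processing notes are STAR, Trim Galore, FastQC, bcl2fastq and edgeR, on the build mm10. The deposited values are log2 CPM, scaled by the authors by TMM with a small count added, per the file headers and the shared floor of -4.04, and the differences of low genes are therefore understated. The read counter is not given in the sources used here.

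After the floor (0.061 CPM) was subtracted, 100% of the low values were whole reads within a tolerance of 0.02, which gave total reads per library. Of 16229 genes, 12981 whose mean log2 CPM was 0 or more were tested with limma 3.58.1 in R 4.3.3 (3 group means over all 6 libraries, eBayes with a mean-variance trend, two-sided, Benjamini-Hochberg over all genes tested, threshold 0.05), which left 3 residual and 7.75 prior degrees of freedom. The test was checked on simulated data. CPM per kb divides by the exon length of GENCODE M21.

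The 10 genes and all gene lists were chosen with earlier results of these data known. Named genes were the 10, called genes of the wider list with 8 fixed names (Tbx18, Tcf21, Aldh1a1, Aldh1a2, Krt7, Cdh1, Nkain4 and Muc16), and the 12 nearest patterns. Groups follow the treatment labels. Separate mice within a group are not stated in the labels, so a p-value reflects only how far these samples spread, which may be technical. Alternatives were other filters, a pseudocount of 1 CPM, no trend, voom weights on recovered reads, other scaling, only the groups compared, and leaving out each library.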

Additional observations from a re-analysis of the deposited data

How the results depend on the processing

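No difference of the 10 genes from untreated hearts changed sign under any alternative run. Without the mean-variance trend the counts of called genes were 0 for the 10 genes and 0 for the wider list with either drug, since no gene of the table passed (lowest adjusted p 0.0578 and 0.113); 1938 and 1728 genes had an unadjusted p under 0.05. With 1 library left out, the 10 genes had 2 to 4 called lower with rivaroxaban (7 with all libraries) and 0 to 2 with dabigatran (3 with all). The wider list had 4 with rivaroxaban (6 with all) and 0 with dabigatran (2 with all). Over the whole table these fits called 24 to 65 genes lower with rivaroxaban (128 with all libraries) and 10 to 75 with dabigatran (65 with all). With only the 2 groups compared, 1 gene of the wider list was called with dabigatran. These fits have fewer residual degrees of freedom. A group left with 1 library is assumed to vary like the others. A filter at a mean log2 CPM of 1 leaves Krt8, Krt18 and Bnc1 untested. Low reads limit Krt8, Krt18 and Bnc1 most.

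Sign changes were of small differences that did not pass. Between the drugs, leaving out 1 library gave log2 differences of -0.364 to 0.0268 for Upk3b, -0.838 to 0.15 for Krt8 and -0.655 to 0.0747 for Lrrn4, each above 0 without rivaroxaban replicate 14. For Bnc1 they ran from -0.267 to 0.253 and it stood at 0.0155 with voom weights. For Wt1 they ran from -0.0821 to 0.00883, above 0 without rivaroxaban replicate 15 or dabigatran replicate 12. Against untreated hearts they ran from -0.0208 to 0.197 for Aldh1a1 with rivaroxaban, and with dabigatran from -0.0674 to 0.151 for Aldh1a1, from -0.144 to 0.0786 for C3 and from -3.09e-04 to 0.269 for Tbx18. The cause was not tested. No paired analysis was possible because the groups share no replicate numbers.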

Other observations

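Genes of related families were read in the same fit. Upk1a, a uroplakin of the bladder lining, had log2 differences of 0.41 with rivaroxaban and 0.74 with dabigatran, opposite in sign to Upk3b and Upk1b, and neither passed (limma adjusted p = 0.44 and 0.204). Its levels were 0.15 and 0.27 log2 CPM untreated, 0.34 and 0.91 with rivaroxaban and 0.92 and 0.99 with dabigatran, so both drug pairs lay above the untreated pair. Of 8 tested genes of epithelial junctions and desmosomes limma called none with either drug, and their median log2 differences were -0.02 and -0.06.

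Of 6 tested transcription factors of the epithelial-mesenchymal transition, in which epicardial cells leave the sheet, limma called none. Their median log2 differences were 0.01 with rivaroxaban and -0.09 with dabigatran. Snai1, a repressor of epithelial genes, stood at 1.89 and 1.79 log2 CPM untreated, 2.23 and 2.29 with rivaroxaban and 2.22 and 2.35 with dabigatran. Its treated libraries all lay above the untreated ones, as for 14.7% of all genes, with log2 differences of 0.42 and 0.44 that did not pass (limma adjusted p = 0.161 and 0.169). Twist1 (-0.33 and -0.15) and Zeb2 (-0.21 and -0.13) went the other way, with all treated libraries below the untreated ones, as for 11.7% of all genes. Upk1a, Snai1, Twist1 and Zeb2 were named after their values were seen.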
